A study of Gossypium barbadense and Gossypium hirsutum with 4 samples.

Results

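Of 24132 probe sets on the Affymetrix cotton array, 72 gave clear signal in fibre of Guazuncho 2 and read near the array background in fibre of VH8-4602. They were chosen by their deposited values. A probe set entered when its ID began with Ghi, GhiAffx, Gra or GraAffx, when both VH8-4602 arrays read below 4 on the log2 scale (called dark here) and when both Guazuncho 2 arrays read above 7 (called bright). The same bars were used on all 4 arrays. The 4 prefixes hold 23868 probe sets, and the 72 carry 71 distinct ID numbers.

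The study compared fibre of 2 cotton species at 11 days post-anthesis. VH8-4602 is a genotype of Gossypium barbadense and Guazuncho 2 one of Gossypium hirsutum. Plants of both were raised from seed in soil in a glasshouse without treatment, and biotin-labelled RNA of each genotype was read on 2 one-colour arrays. Nothing in the labels says whether the 2 samples of a genotype came from separate plants, so the spread between them may be technical. Each species was thus represented by a single genotype at a single time.

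A cotton fibre is a single cell of the seed coat epidermis that elongates for weeks after flowering and then lays down a wall of nearly pure cellulose. Both species are allotetraploids, whose nuclei carry an A and a D subgenome, so many genes exist as homoeologous pairs of similar sequence. Fibre of Gossypium barbadense is known as longer and finer than that of Gossypium hirsutum. An Affymetrix probe set sums several short probes designed on one transcript sequence, and its signal falls when the transcript is scarce and also when the transcript differs from the probes in sequence. The ID prefix marks the species of the design sequence, with Ghi and GhiAffx for Gossypium hirsutum and Gra and GraAffx for Gossypium raimondii, a diploid of the D genome.

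No table used here names the gene behind a probe set ID. Of the 72 IDs, 0 matched an entry of the RefSeq gene table for Gossypium barbadense, and so did 0 of all 24132 IDs of the array. The 72 are therefore described by ID, and no probe or target sequence is given. For the same reason the fibre label of the samples could not be checked against marker genes. A lower signal in bulk fibre RNA does not tell fewer cells with the transcript from less RNA per cell.

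On each array 51.1% to 51.6% of the 24029 probe sets without the AFFX control prefix read above log2 4. The medians of 74 negative controls were 2.02 to 2.07. Their maxima were 3.64 and 3.46 for VH8-4602, replicates 1 and 2, and 3.23 and 3.33 for Guazuncho 2. RNA spiked in at set amounts, read by 27 hybridization controls, averaged 11.24 for VH8-4602 and 10.95 for Guazuncho 2, an offset of 0.29 opposite in sign to the difference of the 72.

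In Guazuncho 2 the 72 ranged from just above the bar to among the brightest signals of the array. Their lowest, median and highest values were 7.08, 8.34 and 12.75 on replicate 1 and 7.04, 8.41 and 12.78 on replicate 2. The 25th and 75th percentiles of the genotype means were 7.77 and 9.81. Means above 8 were read for 46 of the 72, above 10 for 17 and above 12 for 4. All of them were brighter than log2 7 by the rule, so these levels are a description.

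In VH8-4602 the same probe sets lay on the floor of the arrays. The lowest, median and highest values were 1.87, 2.66 and 3.96 on replicate 1 and 1.72, 2.64 and 3.94 on replicate 2. Of the 72, 62 were at or below the highest negative control on both VH8-4602 arrays, 8 on one array and 2 on neither. The floor itself differs between probe sets. The 10988 probe sets of the 4 prefixes that were dark on all 4 arrays had a median VH8-4602 mean of 2.31, with the 5th and 95th percentiles at 1.86 and 3.35. The median of the 72 was 2.64, and 60 of the 72 lay above that median of 2.31.

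**Figure D1:**
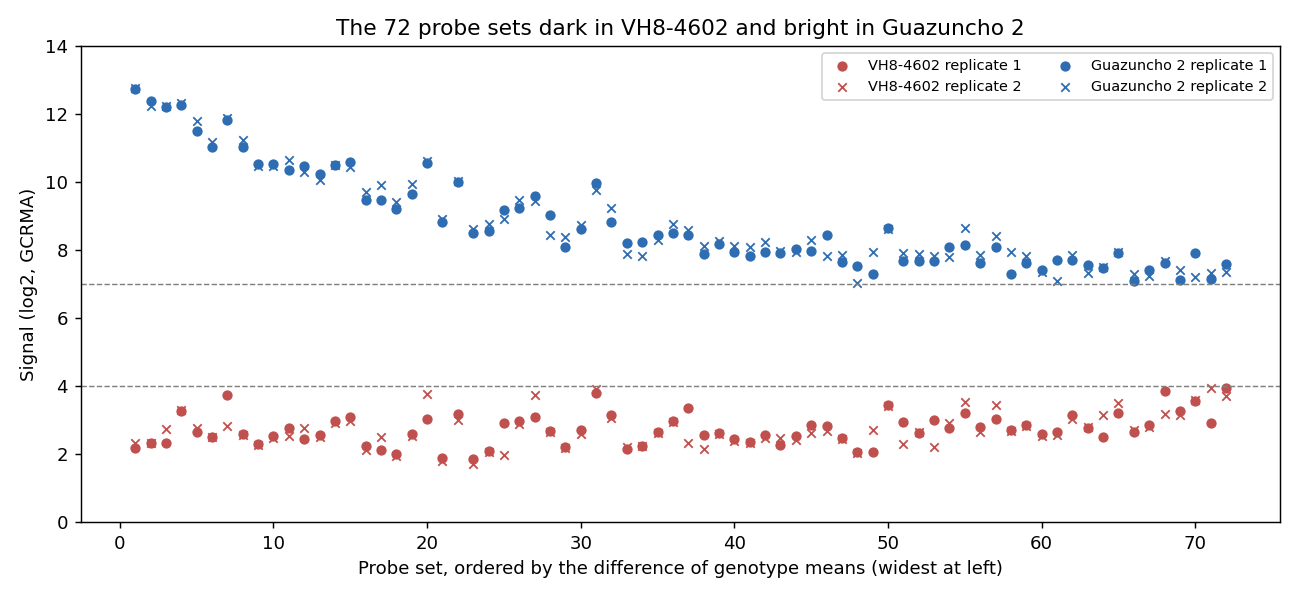
Log2 GCRMA signal of the 72 probe sets (vertical axis) on each of the 4 arrays, ordered along the horizontal axis by the difference of genotype means; red points are VH8-4602, blue points Guazuncho 2, circles replicate 1 and crosses replicate 2, and dashed lines mark the bars at 4 and 7. Replicates of a genotype are at most 1.02 apart, and the Guazuncho 2 values fall from 12.78 to 7.04 while the VH8-4602 values stay between 1.72 and 3.96.

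The gap between the genotypes was many times the spread between replicates. The difference of means, VH8-4602 minus Guazuncho 2, ran from -10.51 to -3.65 with a median of -5.67. The lowest Guazuncho 2 value exceeded the highest VH8-4602 value by 3.20 in the probe set with the narrowest gap and by 5.55 in the median. The absolute difference between replicates had a median of 0.10 in VH8-4602 and 0.20 in Guazuncho 2, with maxima of 1.02 and 0.70. Since the rule selected this contrast, no test is given for it.

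The widest gap belonged to Gra.207.1.A1_s_at, a probe set of a Gossypium raimondii design. It read 12.75 and 12.78 on the Guazuncho 2 arrays, brighter than 96.3% and 96.4% of all probe sets there. On the VH8-4602 arrays it read 2.17 and 2.34, below the highest negative control of each. A fold against a genotype at background is a lower bound, taken here with each VH8-4602 array at the higher of the probe set's own value and the highest negative control. On that basis Gra.207.1.A1_s_at was at least 593-fold lower in VH8-4602.

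3 Ghi probe sets followed with Guazuncho 2 signals above log2 12. Ghi.8424.1.A1_at read 12.38 and 12.23 in Guazuncho 2 and 2.32 and 2.33 in VH8-4602, at least 432-fold lower. Ghi.6103.1.S1_at read 12.20 and 12.24 in Guazuncho 2 and 2.32 and 2.74 in VH8-4602, at least 407-fold lower. Ghi.4991.1.S1_x_at read 12.27 and 12.31 in Guazuncho 2 and 3.26 and 3.29 in VH8-4602, at least 427-fold lower. Its VH8-4602 level was higher than that of the other probe sets named so far, yet still below the negative control maxima of 3.64 and 3.46.

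Those ranked 5th to 8th by the difference of means lay between log2 11 and 12 in Guazuncho 2. GhiAffx.10800.1.S1_at, at least 272-fold lower in VH8-4602, read 11.49 and 11.78 in Guazuncho 2 and 2.64 and 2.78 in VH8-4602. GhiAffx.24915.1.A1_a_at read 11.81 and 11.88 in Guazuncho 2, but 3.75 and 2.84 in VH8-4602, so that its VH8-4602 replicates were 0.90 apart and one of them was above the negative controls. Its bound was 304-fold. The remaining 2 were tighter. Ghi.5012.1.A1_at read 11.04 and 11.19 in Guazuncho 2 against 2.51 and 2.50 in VH8-4602. Ghi.1653.1.S1_at read 11.02 and 11.22 in Guazuncho 2 against 2.58 and 2.56 in VH8-4602.

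The next band held probe sets near log2 10.5 in Guazuncho 2. Ghi.8523.1.A1_at read 10.53 and 10.46 there and 2.29 and 2.26 in VH8-4602. Ghi.2396.1.S1_s_at read 10.54 and 10.46 in Guazuncho 2 and 2.52 and 2.48 in VH8-4602. GraAffx.32888.2.S1_s_at, the single GraAffx probe set among the 72, read 10.49 and 10.51 in Guazuncho 2 and 2.99 and 2.93 in VH8-4602. Replicates of these 3 differed by less than 0.1 in either genotype.

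Over all 72 the lower bound of the fold had a median of 27.1 and ran from 10.9 to 593. It reached 32 in 33 probe sets, 64 in 20, 128 in 8 and 256 in 6. Leaving out any one array moved the bound of each probe set by a factor between 0.78 and 1.28. With the dim side set to the negative controls for most of the 72, the bound orders them by their Guazuncho 2 signal by construction.

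Replicates were least alike in a few VH8-4602 values. 11 of the 72 differed by more than 0.5 between the VH8-4602 replicates and 6 between the Guazuncho 2 replicates. The widest VH8-4602 pair was GhiAffx.25723.1.S1_at, with 3.36 and 2.34 in VH8-4602 and 8.43 and 8.58 in Guazuncho 2. The widest Guazuncho 2 pair was Ghi.4567.1.A1_s_at, with 7.92 and 7.22 in Guazuncho 2 and 3.57 and 3.60 in VH8-4602. That the genotypes stayed more than 3 apart in both follows from the rule.

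The spread of the 72 exceeded that of other probe sets in VH8-4602 and in most bands of Guazuncho 2 signal. Between the VH8-4602 replicates the median difference was 0.10, against 0.03 for probe sets dark on all 4 arrays. The latter were not matched by level, with a median VH8-4602 mean of 2.31 against 2.64 for the 72. Among probe sets with Guazuncho 2 means of 7 to 8, replicates differed by a median of 0.22 in the 72 and 0.14 in the other bright ones. These medians were 0.25 and 0.13 at means of 8 to 9, 0.24 and 0.11 at 9 to 10, and 0.18 and 0.08 at 11 to 12. The order was the opposite at 10 to 11, with 0.08 and 0.10, and at 12 to 13, with 0.04 and 0.07. From the lowest band to the highest, the medians of the 72 rest on 26, 20, 9, 9, 4 and 4 probe sets. A spread of this size was not particular to the 72. In the 35 probe sets of the reverse pattern, dark in Guazuncho 2 and bright in VH8-4602, replicates differed by similar amounts. Their medians were 0.10 in Guazuncho 2 and 0.26 in VH8-4602, over all levels. VH8-4602 replicate 1 read above replicate 2 in 49 of the 72, and in 86.1% of the probe sets dark on all arrays.

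Dark and bright readings of one probe set were almost absent between replicates. In the 4 prefixes, 1 probe set was below 4 on one VH8-4602 array and above 7 on the other, and 0 did so between the Guazuncho 2 arrays. That probe set, Ghi.359.1.S1_at, read 3.25 and 7.04 in VH8-4602 and 3.08 and 3.11 in Guazuncho 2. Between single arrays of the 2 genotypes, 83 to 87 probe sets were dark in VH8-4602 and bright in Guazuncho 2, and 72 held in every one of those array pairs.

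The reverse pattern was seen in fewer probe sets, with 35 probe sets dark on both Guazuncho 2 arrays and bright on both VH8-4602 arrays. As shares, 72 of 8756 probe sets bright in Guazuncho 2 were dark in VH8-4602 (0.822%), and 35 of 8743 bright in VH8-4602 were dark in Guazuncho 2 (0.400%). Their bright levels were alike at the median, 8.32 and 8.31, but the reverse set reached a mean of 10.75 at most, against 12.76. At means above 11 there were 8 probe sets in one direction and 0 in the other. With the hybridization controls set equal the counts were 75 and 28, with quantile normalization 71 and 37, and with median centring 72 and 34. These counts carry no test, as both sets were chosen by their values.

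**Figure D2:**
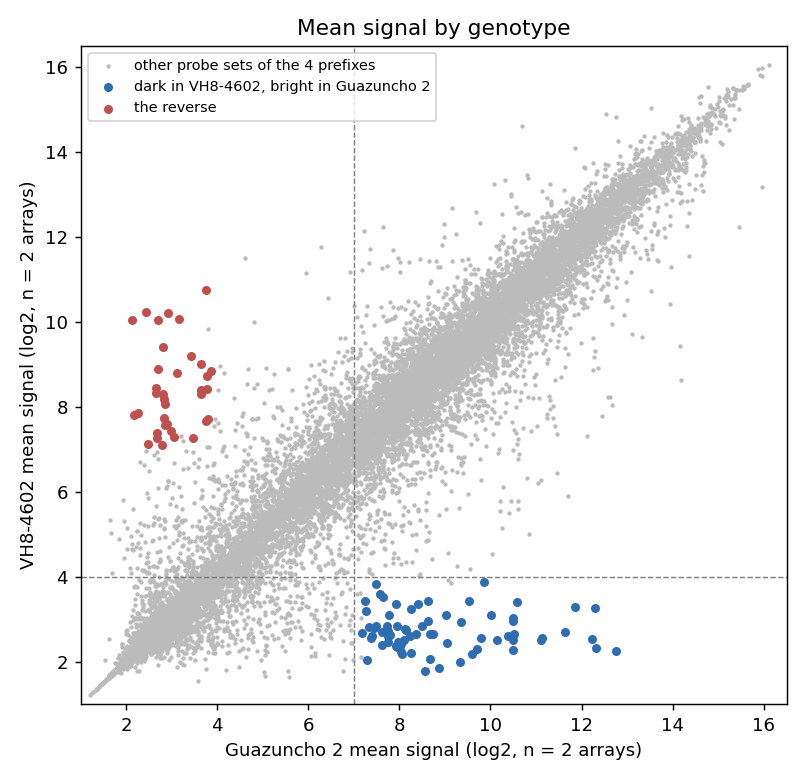
Mean log2 signal in Guazuncho 2 (horizontal axis) against VH8-4602 (vertical axis), each over 2 arrays, for the 23868 probe sets of the 4 prefixes. The 72 (blue) run along the floor below log2 4 out to 12.76, the 35 of the reverse pattern (red) reach 10.75, and dashed lines mark the bars of 4 and 7 that chose the 72.

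No empty interval of VH8-4602 levels set the 72 apart, but the counts did not fall steadily towards the floor either. Of the 8756 probe sets bright in Guazuncho 2, 8297 had a VH8-4602 mean of at least 7, and 282 lay between 6 and 7. Another 63 lay between 5 and 6, and 40 between 4 and 5. Then 20 lay between 3 and 4, 51 between 2 and 3, and 3 below 2. Of those with a mean below 4, 2 probe sets read above 4 on one VH8-4602 array and so are not among the 72. Numbers thus fell from 6 down to 3 and rose again between 2 and 3, where the array floor lies. In the other direction the counts were 25 between 4 and 5, 17 between 3 and 4, and 21 between 2 and 3.

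**Figure D3:**
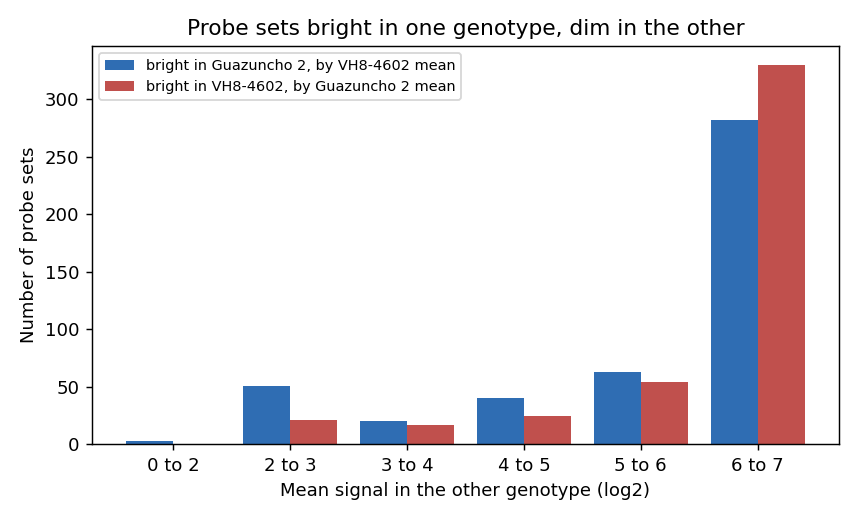
Number of probe sets (vertical axis) by mean log2 signal in the dimmer genotype (horizontal axis), for those bright in Guazuncho 2 (blue) and those bright in VH8-4602 (red), leaving out means of 7 and above. Blue bars are 20 between 3 and 4 and 51 between 2 and 3, against 17 and 21 for red.

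At the dark bar, the members nearest to 4 were Ghi.3459.1.A1_at, with 3.96 and 3.70 in VH8-4602 and 7.59 and 7.36 in Guazuncho 2, and GhiAffx.19824.1.S1_at, with 2.92 and 3.94 in VH8-4602 and 7.14 and 7.33 in Guazuncho 2. The third was Ghi.482.1.A1_s_at, with 3.81 and 3.93 in VH8-4602 and 9.96 and 9.76 in Guazuncho 2. Ghi.3459.1.A1_at and Ghi.482.1.A1_s_at were the 2 whose values exceeded the highest negative control on both VH8-4602 arrays. Just outside lay Gra.798.1.S1_s_at, with 3.96 and 4.18 in VH8-4602 and 8.44 and 8.47 in Guazuncho 2. Ghi.6678.1.A1_at, with 4.20 and 4.03 in VH8-4602, and GhiAffx.31262.2.A1_a_at, with 4.26 and 4.10, were outside as well.

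At the bright bar, the members nearest to 7 were Ghi.10731.2.S1_at, with 7.53 and 7.04 in Guazuncho 2, GhiAffx.24068.2.S1_a_at, with 7.70 and 7.08, and GhiAffx.7119.1.S1_a_at, with 7.08 and 7.28. Just outside lay GhiAffx.62104.1.S1_at, with 6.98 and 6.98 in Guazuncho 2 and 2.09 and 1.99 in VH8-4602. GhiAffx.40402.1.A1_at, with 7.33 and 6.97, and GhiAffx.1589.99.S1_at, with 6.92 and 7.40, each missed the bar on one array. The nearest values inside and outside this bar, 7.04 and 6.98, were closer than the median replicate difference of the 72 in Guazuncho 2, 0.20. At the dark bar, 3.96 and 4.18 were farther apart than the median replicate difference in VH8-4602, 0.10. They were within its 75th percentile of 0.27.

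The share of bright probe sets that were dark in VH8-4602 was mostly lower at higher signal. Among those with Guazuncho 2 means of 7 to 8 it was 26 of 1411 (1.84%), and at 8 to 9 it was 20 of 1696 (1.18%). At 9 to 10 it was 9 of 1646 (0.547%), at 10 to 11 it was 9 of 1420 (0.634%), at 11 to 12 it was 4 of 1113 (0.359%) and at 12 to 13 it was 4 of 778 (0.514%). Of the 692 probe sets at 13 or more, 0 were dark in VH8-4602. In the reverse direction the shares were 1.01% at 7 to 8 and 0.734% at 8 to 9, and 0 of 1112 at 11 to 12.

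**Figure D4:**
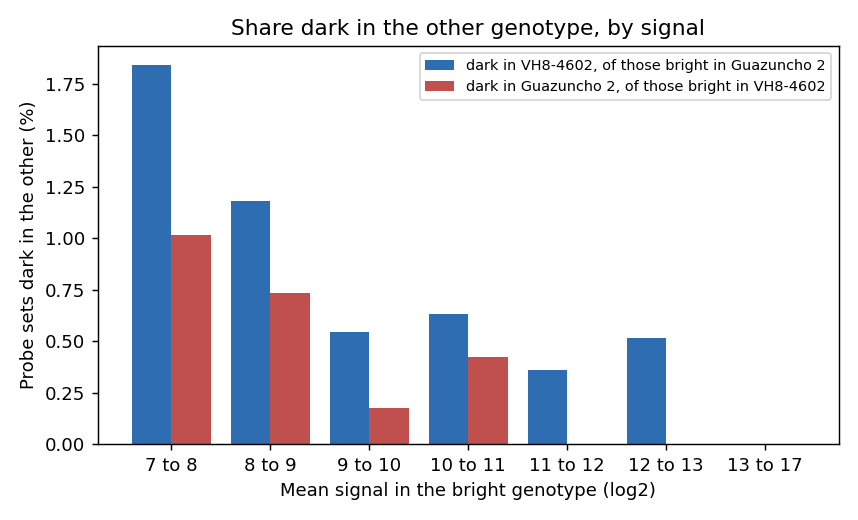
Percentage of bright probe sets that were dark in the other genotype (vertical axis) by mean log2 signal in the bright genotype (horizontal axis), for the 72 (blue) and the reverse pattern (red). Blue bars are 1.84% at 7 to 8 and 0.514% at 12 to 13, with 4 probe sets in that last bin and 0 at 13 or more.

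Probe sets of hirsutum design made up most of the 72, as they did of all bright probe sets. Of the 72, 46 carried the prefix Ghi, 22 GhiAffx, 3 Gra and 1 GraAffx. As a share of the probe sets of the same prefix bright in Guazuncho 2, these were 0.968%, 0.729%, 0.540% and 0.233%. For the reverse pattern, as shares of those bright in VH8-4602, the same prefixes in that order gave 0.277%, 0.587%, 0.361% and 0.458%. The Gra and GraAffx shares rest on 3, 1, 2 and 2 probe sets. The remaining Gra probe sets were dimmer than Gra.207.1.A1_s_at in Guazuncho 2, where Gra.97.1.A1_s_at read 8.08 and 7.80 and Gra.3025.1.S1_s_at read 7.57 and 7.31.

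A further 105 probe sets carry the prefixes GarAffx and GbaAffx, of which GbaAffx marks a design on Gossypium barbadense sequence. They lie outside the rule by their IDs. Of these, 43 GarAffx and 23 GbaAffx were bright in Guazuncho 2, and 0 of them were dark in VH8-4602. With so few probe sets, this count was not set against the share in the other prefixes.

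The ID suffix tells how specific a probe set was meant to be. The plain suffix _at marks probes meant for 1 transcript, _s_at probes shared by several transcripts, _x_at probes that may cross-react and _a_at transcripts of 1 gene. Of the 72, 49 ended in plain _at, 17 in _s_at, 3 in _x_at and 3 in _a_at. Plain _at probe sets were 40.8% of those bright in Guazuncho 2, and 49 of 3569 of them were dark in VH8-4602 (1.37%), against 17 of 4333 _s_at probe sets (0.392%). In the reverse direction these shares were 0.478% and 0.369%.

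Plain _at probe sets were also dimmer, with a median Guazuncho 2 mean of 9.13 among the bright ones, against 10.26 for _s_at. Within bands of signal the shares were 1.95% and 1.50% at 7 to 8, 1.41% and 0.353% at 8 to 10, and 1.04% and 0.210% at 10 to 13, for _at and _s_at in that order. The _s_at shares rest on 8, 5 and 4 probe sets. In the reverse direction the order turned at 8 to 10, with 0.371% and 0.559%. Over all levels the shares were 2.36% for _a_at and 0.413% for _x_at, each resting on 3 probe sets. No difference between suffixes was tested.

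The letter S or A in the ID gives the sense or antisense orientation of the design relative to its source sequence. Of the 72, 49 were S and 23 were A, which is 0.781% and 0.928% of the bright probe sets of each orientation. In the reverse direction the order was the opposite, with 0.430% for S and 0.325% for A. The difference between orientations was not tested.

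Probe sets that share the ID prefix and ID number were designed on the same cluster of sequences and read it elsewhere, on the other strand or in another variant. Of the 72, 56 were alone under their ID number (77.8%), against 73.8% of the other 8684 probe sets bright in Guazuncho 2. Both probe sets of Ghi.4013 were among the 72. Ghi.4013.1.A1_at read 8.02 and 7.93 in Guazuncho 2 and 2.52 and 2.42 in VH8-4602, and Ghi.4013.2.S1_at read 8.25 and 7.82 in Guazuncho 2 and 2.24 and 2.23 in VH8-4602. They were close to each other in both genotypes, but the rule chose both by these values, so this is a description. They differ in the second number of the ID and in orientation. The remaining 14 had 16 companion probe sets outside the 72, which the rule did not use.

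Most companions were dark in both genotypes and gave no contrast between them. Of the 16, 13 read below 4 on all 4 arrays. Of the 10 that shared the second number of the ID as well and had the opposite orientation, 9 were dark on all arrays. Among the other bright probe sets with such a partner, it was dark on all arrays in 661 of 1055 (62.7%), so a dark partner was the usual case. Ghi.9030.1.S1_at, for example, read 8.81 and 8.92 in Guazuncho 2 and 1.90 and 1.81 in VH8-4602, while Ghi.9030.1.A1_at read 2.83 and 2.84 in Guazuncho 2 and 2.88 and 2.87 in VH8-4602. Of the 13, GraAffx.32888.1.A1_at came nearest to a contrast, with 2.84 and 3.66 in Guazuncho 2 and 2.09 and 2.07 in VH8-4602.

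The remaining 3 companions passed the filter of the test, limma across the 12603 probe sets that exceeded log2 4 on 2 or more arrays. In that fit 20.9% of all probe sets were lower in VH8-4602 and 25.1% higher at a Benjamini-Hochberg adjusted p under 0.05. With the hybridization controls set equal these shares were 32.3% and 12.4%. Companions Ghi.728.1.S1_x_at and Ghi.4991.1.A1_at passed the filter through their Guazuncho 2 values alone, which fixed the direction in which they could differ, so their values are given with no test.

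Ghi.728.1.S1_x_at read much like its partner among the 72. It read 6.58 and 7.21 in Guazuncho 2 and 2.59 and 3.16 in VH8-4602, below the negative control maxima. Its partner Ghi.728.2.S1_at read 7.29 and 7.94 in Guazuncho 2 and 2.71 and 2.69 in VH8-4602. The companion missed the bright bar on 1 array and was at least 10.2-fold lower in VH8-4602.

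Ghi.4991.1.A1_at, of the opposite orientation to Ghi.4991.1.S1_x_at, was also above log2 4 in Guazuncho 2 alone. It read 5.15 and 5.96 in Guazuncho 2 and 2.81 and 2.68 in VH8-4602, again below the negative control maxima. It was at least 4.02-fold lower in VH8-4602.

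Ghi.6539 was the one ID number with a companion above log2 4 on the VH8-4602 arrays. Its member of the 72, Ghi.6539.2.A1_at, read 7.93 and 8.12 in Guazuncho 2 and 2.44 and 2.37 in VH8-4602. Ghi.6539.1.S1_s_at, which differs in second number, orientation and suffix, read 5.06 and 5.02 in Guazuncho 2 and 6.26 and 6.35 in VH8-4602. It was higher in VH8-4602 by 1.27 on the log2 scale (SE 0.09, limma adjusted p = 0.00102), or 2.40-fold, with all values above log2 4 on every array. With the hybridization controls set equal, this difference was 0.97. The same fit without moderation of the variance, an ordinary t test, gave an adjusted p of 0.0333. The third probe set of this ID number, Ghi.6539.2.S1_at, read 3.33 and 2.98 in Guazuncho 2 and 2.96 and 2.88 in VH8-4602. Signal above log2 4 under the ID number Ghi.6539 was thus read in both genotypes, with opposite order in its 2 probe sets above that level. Since the suffix _s_at marks probes shared by several transcripts, the 2 probe sets need not read the same transcript. The difference between the 2 probe sets was not itself tested, because the rule fixed the direction of the first.

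**Figure D5:**
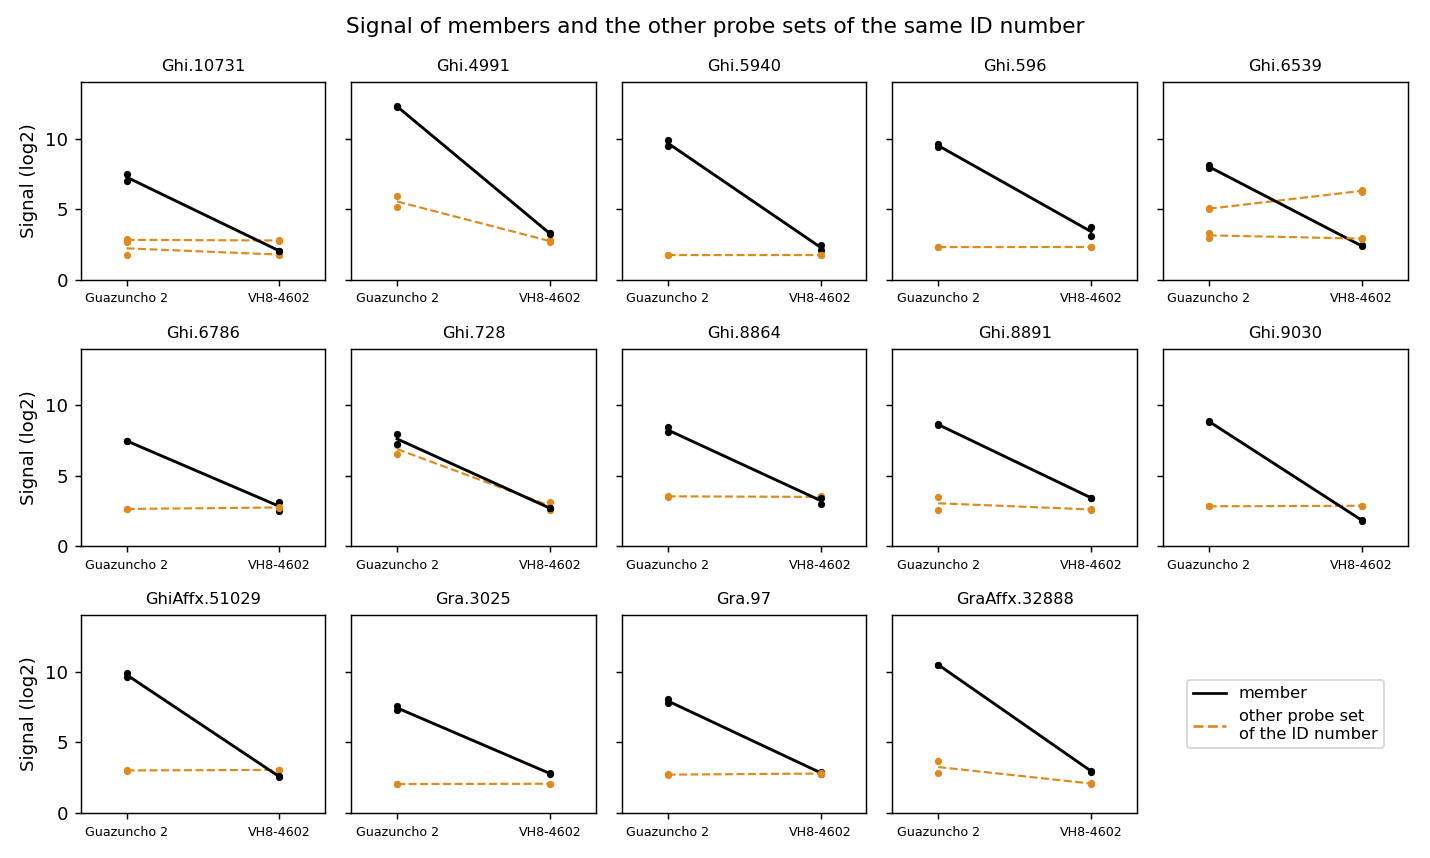
Log2 signal in Guazuncho 2 and VH8-4602 for the 14 ID numbers with a probe set among the 72 (black, solid) and at least 1 outside it (orange, dashed); points are single arrays and lines join genotype means. Companions of Ghi.728 and Ghi.4991 lie above log2 4 in Guazuncho 2 alone, the companion Ghi.6539.1.S1_s_at runs from 5.04 up to 6.31, and 13 of the 16 stay below 4 on every array.

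Probe match could produce the same readings as a missing transcript. The probe sequences and the transcript sequences of VH8-4602 were not used here, so the level of a transcript and the match of its probes cannot be told apart for any of the 72, and the part of probe match was not tested. Designs on hirsutum sequence made up 68 of the 72 (94.4%), against 88.8% of all probe sets bright in Guazuncho 2 and 88.6% of the reverse set.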

How the data were processed

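RNA of fibre from 2 genotypes was read on 4 Affymetrix cotton arrays. The authors deposited log2 values from GCRMA (named in the submitters' processing notes, with no version in the sources used here), and the log2 scale was inferred from their range of 1.20 to 16.16. GCRMA subtracts background by probe composition, equalises array distributions and sums probes, which compresses dim values towards a floor and removes shifts shared by most transcripts.

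Values were used as deposited, with groups from the genotype label. The 72 members and all lists were chosen with earlier results of these data known. The naming rule took the 10 widest differences, the widest of each prefix, the 3 nearest each side of each bar, the largest replicate differences, and companions that passed the filter; Ghi.9030, GraAffx.32888.1.A1_at, Ghi.4013, Gra.97, Gra.3025 and Ghi.359 were named after their values were seen. The 103 AFFX controls were not tested, and 12603 of the remaining probe sets had a log2 value above 4 on at least 2 arrays. These were tested, VH8-4602 minus Guazuncho 2, with limma 3.58.1 in R 4.3.3 (lmFit, eBayes, Benjamini-Hochberg) with no covariates, after a check on simulated data. Negative controls were 74 probe sets (RPTR, Tag or TrpnX); 1 RPTR probe set bright on every array was left out after its values were seen. The number of arrays limits the precision. Alternatives covered the bars, scaling, filter, variance model, thresholds and each array left out. Python 3.11.15 and matplotlib 3.10.9 were used for counts and figures.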

Additional observations from a re-analysis of the deposited data

How the results depend on the processing

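The number of probe sets meeting the rule moved with both bars. It was 118 with the bar for Guazuncho 2 at log2 6 and 39 at log2 8, against 72, and the reverse pattern gave 61 and 18. With the bar for VH8-4602 at 3.5 or 3 it was 62 or 51 (23 or 19 in reverse) and at 5, an alternative chosen after seeing the data, 102, with each VH8-4602 array held to its own highest negative control 62, with quantile normalization 71, with median centring 72 and with the hybridization controls set equal 75. Leaving out 1 array gave 76 to 79, all 72 included, since fewer arrays have to meet the bars. Companions called lower in VH8-4602, whose direction the filter fixed, numbered 2, but 1 with a filter at log2 6, 1 when the second ID number also had to match and 0 without moderation; the 1 called higher became 0 when the second number had to match, as Ghi.6539.1.S1_s_at then drops out. The counts were 2 and 1 with each array left out, where the lone array is assumed to vary like the other genotype. All tested probe sets called lower numbered 2629, against 4074 with the hybridization controls set equal, 856 without moderation, 1524 at an adjusted p under 0.01, 1142 with a log2 difference of at least 1 and 1879 to 2176 with an array left out. No paired analysis was possible because no number in the labels ties an array of one genotype to one of the other. The array floor limits the dim side of the 72.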
